A study of Mus musculus with 24 samples.

Results

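RNA-seq of the f1 culture was used to ask what changed in p53-deficient mouse astrocytes when they expressed the missense mutant p53 Y217C. The comparison set the 3 libraries of the line labelled f1_y217c against the 3 libraries of the line labelled f1_cre, here p53 Y217C and p53 KO. These are 6 of the 24 libraries of the series, which holds 3 libraries of each of 8 lines, and all 14427 genes in the deposited count table were tested. The labels give cortical astrocytes isolated at postnatal day 1 from female mice on a C57BL/6 background, grown in DMEM/F12 with 10% FBS and used at passages 10 to 15.

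Both lines descend from 1 pool of astrocytes from female Trp53 f/- pups, which carry one floxed and one null Trp53 allele. The p53 Y217C line received a retrovirus (pMSCV-IRES-GFP backbone) encoding the mutant together with eGFP, was sorted for GFP, and was then infected with a Cre-IRES-Puro lentivirus and selected with puromycin. The p53 KO line received only the Cre lentivirus and puromycin. Both lines therefore carry Cre and lack a functional wild-type allele, whereas the retrovirus, eGFP and the sort are found only in p53 Y217C. The mutant is expressed from the retroviral promoter, not from its own locus, and the genotype label calls it an overexpression. The 3 libraries of a line are samples of that 1 line, so p-values measure the spread within a line, and an effect of the mutation cannot be told apart from divergence of the 2 lines during selection and passage.

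p53 is a transcription factor that binds DNA as a tetramer and activates genes of cell-cycle arrest, DNA repair and apoptosis, including its own inhibitor Mdm2. Missense mutations in its DNA-binding domain usually remove this activity, and several mutant proteins accumulate and alter transcription in ways that loss of p53 does not, which is called gain of function. Y217C replaces a tyrosine of the DNA-binding domain by a cysteine. The position of the mutated codon is shown because it is the residue changed in the p53 that the retrovirus encodes. The p53 KO line received no such virus, and the coordinates are those of the reference gene. The reference codon of the mutated tyrosine (TAT, 1 of 390 codons) lies in exon 6 of Trp53, a gene on the plus strand of chromosome 11, at chr11:69588724-69588726 in GRCm38. The stretch shown is the coding sequence with 10 codons on either side, joined across an exon border, with the mutated codon in capitals.

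Trp53 around the Y217C codon: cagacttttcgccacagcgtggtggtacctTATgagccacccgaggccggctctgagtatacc

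Trp53 itself checks the labels. It stood at 51.9, 46.5 and 48.4 counts per 1000000 (CPM, scaled by edgeR's TMM factors) in p53 KO and at 3546, 3870 and 3710 CPM in p53 Y217C. The groups did not overlap, and the log2 fold change was 6.24 ± 0.07 (SE, adjusted p = 1.63e-27). This and all adjusted p-values below are from edgeR's quasi-likelihood test on the counts with Benjamini-Hochberg adjustment over all 14427 genes. The SE here and below is approximate, the absolute log2 fold change divided by the square root of that test's F statistic. For large changes that rest on few counts, as for Grb10 below, it can be smaller than the counting error. Gene-level counts do not separate the retroviral transcript from transcripts of the null or recombined allele, which were still counted in p53 KO. Xist, the RNA that coats the inactive X chromosome, was present in all 6 libraries, at 278, 242 and 274 CPM in p53 KO and 340, 415 and 473 CPM in p53 Y217C, and averaged 0.0604 CPM in the KO line of the male m1 culture.

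Tmem130 and Zan were, like Trp53, low in both KO lines and higher in all 6 mutant lines. Tmem130, which encodes a transmembrane protein, was at 0.108, 0.141 and 0.0966 CPM in p53 KO and at 13.9, 13.1 and 12.3 CPM in p53 Y217C, the largest rise among genes of at least 5 CPM (log2 fold change 6.84 ± 0.21, adjusted p = 5.67e-18). Zan, which encodes zonadhesin, a sperm protein that binds the egg coat, was at 0.383, 0.448 and 0.686 CPM and at 7.44, 8.86 and 8.16 CPM (4.0 ± 0.20, adjusted p = 6.15e-14). Neither gene's libraries overlapped between the lines. Within the f1 culture, mean Trp53 was 3709 CPM in p53 Y217C, 1956 in p53 R172H and 593 in p53 Y202C, where mean Tmem130 was 13.1, 8.17 and 1.81 CPM and mean Zan 8.15, 4.26 and 1.27 CPM. In the male m1 culture, which shares no library with the comparison, mean Trp53 was 1215, 2287 and 2324 CPM in the same order, mean Tmem130 4.80, 9.14 and 7.51 CPM, and mean Zan 4.31, 6.24 and 5.15 CPM. The m1 KO line was at 50.9 CPM for Trp53, 0.229 CPM for Tmem130 and 0.405 CPM for Zan. These values are a description over 8 lines, and the 3 f1 mutant lines share the KO libraries.

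**Figure D1:**
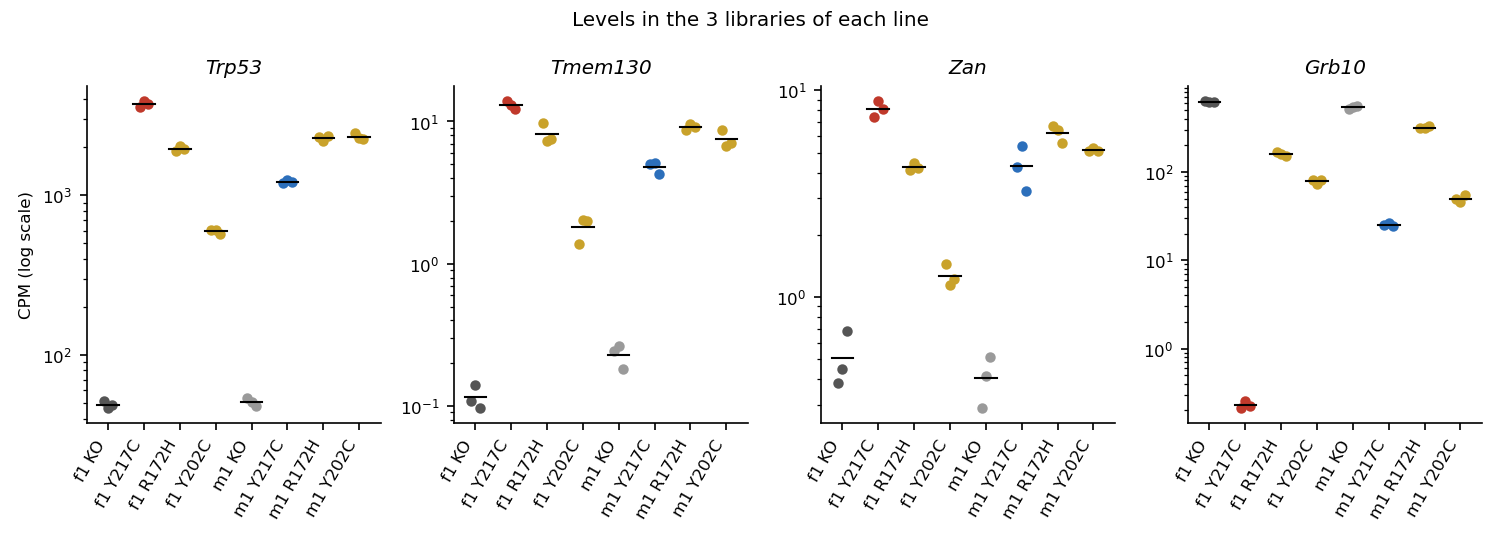
Levels of Trp53, Tmem130, Zan and Grb10 in CPM (log scale) in the 3 libraries of each of the 8 lines, each dot a library and each bar the mean. Trp53, Tmem130 and Zan were lowest in the KO lines and, within the f1 culture, highest in p53 Y217C, and Grb10 was lowest in f1 p53 Y217C, where the 3 libraries sat between 0.211 and 0.254 CPM.

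The 6 libraries held 67030941 to 105943244 counts, within the range of 52787288 to 136503809 over the series. The first principal component, with 82.3% of the variance, separated the lines. The second, with 6.77%, spread the p53 Y217C libraries, from -23.07 for replicate 1 to 18.14 for replicate 3. The other libraries lay between -7.23 and 6.39. Some defining astrocyte markers were near the detection limit in both lines. Gfap, the astrocyte intermediate filament, was at 0.137, 0.0897 and 0.145 CPM in p53 KO and at 0.0705, 0 and 0.103 CPM in p53 Y217C (adjusted p = 0.158), and Aqp4, the water channel of astrocyte endfeet, was at 0 in 5 of the 6 libraries. Others were measured well above it, such as Gja1, which encodes connexin 43, at means of 222 and 153 CPM. The summed level of 20 astrocyte markers was 576 to 608 CPM in p53 KO and 489 to 557 CPM in p53 Y217C, and that of 14 pericyte and fibroblast markers 27780 to 29790 CPM and 29630 to 31380 CPM. Of 14 microglial markers, 4 were in the table, with sums of 62.8 to 67.8 CPM and 124 to 138 CPM. Most of that sum was Tmem119, at 44.6 and 96.8 CPM on average, while Csf1r, the receptor that microglia need to survive, was at 0.601 and 0.539 CPM. The sums of the markers in the table for endothelium (5 of 10), the oligodendrocyte lineage (6 of 13) and neurons (6 of 14) were lower in p53 Y217C without overlap, at 228 to 254 CPM against 155 to 181 CPM, 334 to 342 CPM against 235 to 241 CPM, and 145 to 150 CPM against 115 to 118 CPM. Single members went both ways. For endothelium 4 fell and 1 rose, and for neurons 4 fell and 1 rose. For the oligodendrocyte lineage 2 fell and 3 rose. Of the 3 neuronal markers outside the chromosomal stretches named below, 1 fell and 1 rose. The part of these marker levels in the results below was not tested, and in bulk RNA fewer cells of a type and less RNA per cell cannot be told apart.

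Expression differed between the lines at most of the genes tested. Of 14427 genes, 8183 (56.7%) passed an adjusted p of 0.05, of which 4037 (28.0%) were higher in p53 Y217C and 4146 (28.7%) were lower. Most changes were small. The median absolute log2 fold change of the genes called was 0.45, and 562 genes (3.90%) rose and 768 (5.32%) fell by more than 2-fold. The libraries of the lines did not overlap for 9520 genes (66.0%). These shares are the background for each count of list members below.

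**Figure D2:**
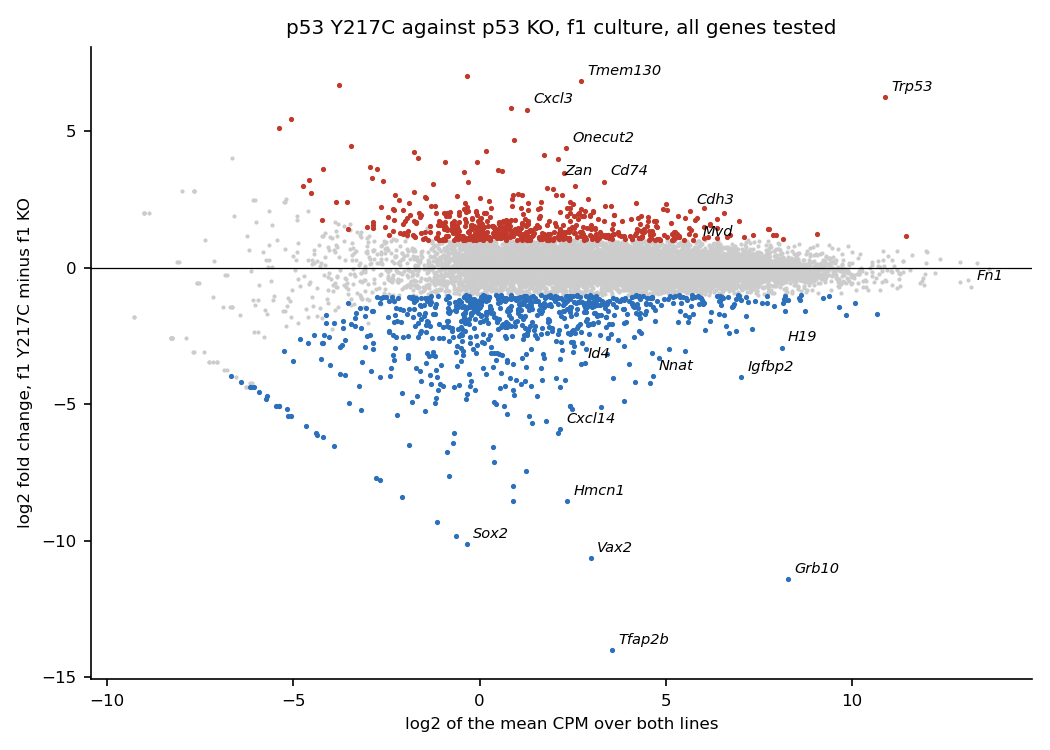
Log2 fold change of p53 Y217C over p53 KO in the f1 culture against the log2 mean CPM of both lines, one point per gene, for 14427 genes. Red and blue points are the 562 genes that rose and the 768 that fell by more than 2-fold and passed the test, and grey points are the rest. For genes at 0 in one line, such as Tfap2b and Sox2, the height of the point depends on the prior count of the fit and is no measured size.

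The largest falls were of genes that were well expressed in p53 KO and all but lost in p53 Y217C. Grb10, an imprinted adaptor that inhibits insulin and IGF receptor signalling, was at 630, 624 and 623 CPM in p53 KO and at 0.211, 0.254 and 0.222 CPM in p53 Y217C, which rest on 18, 20 and 15 counts (log2 fold change -11.41 ± 0.11, adjusted p = 1.45e-28). Tfap2b, an AP-2 transcription factor of the neural crest and kidney, was at 22.9, 22.6 and 25.1 CPM in p53 KO and had no count in p53 Y217C, at least 600-fold lower against a floor of 3 counts per library. Vax2, a homeobox gene of the ventral eye, was at 16.4, 15.1 and 16.1 CPM in p53 KO and at 0, 0 and 0.0295 CPM in p53 Y217C, at least 404-fold lower. Levels of all 3 genes were separate between the lines in every library. Hmcn1, which encodes the matrix protein hemicentin, was at 9.98, 10.2 and 10.4 CPM and at 0, 0.0508 and 0.0295 CPM. Irx2 (-6.07 ± 0.16), a homeobox factor, Cxcl14 (-5.92 ± 0.22), a chemokine, Hs3st3b1 (-5.69 ± 0.25), a heparan sulphate sulphotransferase, Erfe (-5.62 ± 0.36), the hormone erythroferrone, and Ccdc8 (-5.18 ± 0.19), which encodes a protein of the 3M complex, followed. The 12 largest falls were completed by Ifitm1, Lad1 and Xirp2, at -5.09, -5.07 and -5.06 on the log2 scale. Of the 12, Tfap2b, Hmcn1, Erfe and Lad1 lie on chromosome 1, where 592 of 849 genes fell, as described below.

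The rises were of genes that were scarcely expressed in p53 KO. Onecut2, a homeobox factor of liver and neurons, was at 0.56, 0.333 and 0.473 CPM in p53 KO and at 9.48, 9.80 and 9.53 CPM in p53 Y217C (log2 fold change 4.38 ± 0.23, adjusted p = 1.24e-13). Aldh1a7, an aldehyde dehydrogenase, was at 0.285, 0.295 and 0.483 CPM and at 7.26, 6.44 and 5.08 CPM (4.13 ± 0.29). Cd74, the invariant chain of MHC class II, was at 1.95, 1.82 and 2.38 CPM and at 23.7, 13.7 and 17.5 CPM (3.15 ± 0.24, adjusted p = 1.53e-10). No library of one line reached the range of the other for any of these genes. Ppbp, a platelet chemokine (3.46 ± 0.19), Plscr2, a phospholipid scramblase (2.98 ± 0.13), Sorl1, a sorting receptor for the amyloid precursor (2.87 ± 0.13), Ucp2, a mitochondrial carrier (2.66 ± 0.20), and Islr, a secreted immunoglobulin protein of mesenchymal stroma (2.65 ± 0.22), also rose. Rn7sk, a small nuclear RNA without a poly(A) tail, rose from 1.02, 0.717 and 0.734 CPM to 8.39, 3.71 and 6.47 CPM (2.90 ± 0.37), with the p53 Y217C libraries spread widely.

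In absolute level, the largest falls were of matrix and cytoskeletal genes. Fn1, which encodes fibronectin, fell from 11330, 11700 and 11510 CPM to 7037, 7119 and 7252 CPM (log2 fold change -0.69 ± 0.05). It lies on chromosome 1, where the median log2 fold change of all genes tested was -0.50, as described below. Actb, which encodes β-actin (mean 9044 to 6264 CPM), Thbs1, which encodes thrombospondin (10220 to 7459 CPM), Flna, which encodes filamin A (4735 to 3058 CPM), and Col4a1, a chain of basement membrane collagen (4315 to 2964 CPM), also fell. After Trp53, the largest rises in level were of Bgn, which encodes the proteoglycan biglycan (3175 to 4881 CPM), and of mt-Cytb (3305 to 4947 CPM) and mt-Co1 (4690 to 5873 CPM), subunits of respiratory complexes. The rise of mt-Co1 lost the test without replicate 3 of p53 Y217C (log2 fold change 0.25, adjusted p = 0.103) or replicate 3 of p53 KO (0.31, adjusted p = 0.0593). Of the 14 mitochondrially encoded genes tested, 12 rose and none fell. Gm42418, a transcript that overlaps ribosomal RNA, was at 1449, 1940 and 1785 CPM in p53 KO and at 5426, 2492 and 3659 CPM in p53 Y217C, and Gm26917, of the same kind, at 1896, 2858 and 2668 CPM and 708, 716 and 854 CPM. Both lie on ribosomal RNA sequence, whose reads the counting could split between copies, and their values are uncertain.

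Changes were not spread evenly over the genome. The median log2 fold change over all genes was 0.0040, that of 849 genes on chromosome 1 was -0.50 and that of 496 genes on chromosome 14 was -0.47. On chromosome 1, 592 genes fell and 60 rose, and on chromosome 14, 333 fell and 33 rose. The medians of the other autosomes lay between -0.10 and 0.21, the highest on chromosome 9. In windows of 20 Mb, the median of chromosome 1 ranged from -0.55 to -0.40 along its whole length, and that of chromosome 14 from -0.69 to -0.22. Chromosomes 1 and 14 held 9.32% of the genes tested, 22.3% of those that fell and 21.5% of those that fell by more than 2-fold. Chromosome 1 gave 5.52% to 5.57% of all counts of a p53 KO library and 3.82% to 3.88% of those of a p53 Y217C library.

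Chromosome 8 changed direction along its length. The median log2 fold change was -0.03 over 376 genes up to 80 Mb, -0.54 over 154 genes between 80 and 100 Mb, of which 113 fell and 12 rose, and 0.49 over 254 genes beyond 100 Mb, of which 197 rose and 15 fell. Each line was then set against the median of the 8 lines, gene by gene, to see which of them stood apart. On chromosome 1 the p53 Y217C line was the furthest from the others, with a median of -0.33 on the log2 scale, while p53 KO was at 0.06 and the other 6 lines lay between -0.08 and 0.13. On chromosome 14 p53 Y217C was at -0.27 and p53 KO at 0.07, and the f1 R172H line stood as far apart on the other side, at 0.30. On chromosome 8 the p53 KO line was the one furthest from the others, at 0.54 between 80 and 100 Mb and -0.23 beyond, where p53 Y217C was at 0.10 and 0.20. The other 6 lines lay between -0.14 and 0.04 in the first of these stretches and between -0.04 and 0.04 in the second. The f1 R172H and f1 Y202C lines, compared with the same KO libraries, had medians of -0.55 and -0.80 in the first stretch and of 0.31 and 0.22 in the second. In the m1 culture p53 Y217C over KO had medians of 0.24 and 0.03 there, of -0.15 on chromosome 1 and of -0.02 on chromosome 14, and p53 R172H over KO had medians of -0.20 and -0.32 on these 2 chromosomes. DNA copy number was not analysed here, and its part in these shifts was not tested. Beside counts below, the count without genes of chromosomes 1 and 14 and of chromosome 8 beyond 80 Mb is given where it changes a reading. Over the remaining 12674 genes, 3735 (29.5%) rose and 3093 (24.4%) fell. These stretches were chosen after their medians were seen.

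**Figure D3:**
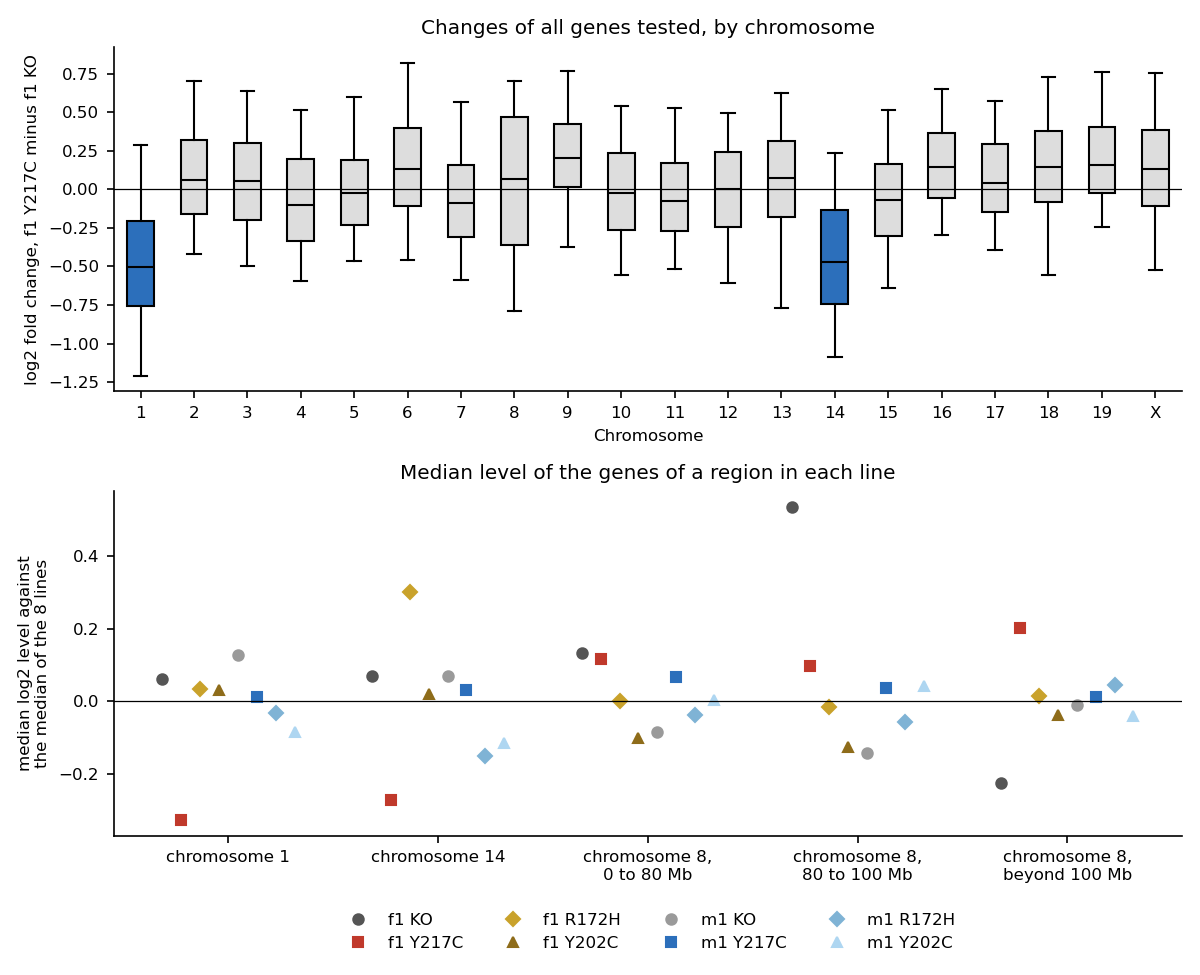
Upper panel, log2 fold change of p53 Y217C over p53 KO in the f1 culture by chromosome, with the median, quartiles and the 10th to 90th percentile of all genes tested, chromosomes 1 and 14 in blue. Lower panel, median log2 level of the genes of a region in each line against the median of the 8 lines. The f1 Y217C line lies at -0.33 on chromosome 1 and -0.27 on chromosome 14, and the f1 KO line at 0.54 on chromosome 8 between 80 and 100 Mb.

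Genes were next grouped by function. For each list, the number of measured members that rose and fell is set against the background of 28.0% and 28.7% above, and members named beyond the 3 with the largest change of a list were chosen after their values were seen. Lists can share genes. Of 15 members of the list of Trp53 and its regulators, 5 rose, Trp53 itself among them, and 2 fell. Chek1 and Chek2, kinases of the DNA damage checkpoint, rose by 0.64 ± 0.11 and 0.41 ± 0.07 on the log2 scale, and Trp63, a p53 family member at low level, from 0.255, 0.102 and 0.386 CPM to 1.18, 0.839 and 0.384 CPM, with overlapping libraries. The fifth, the ubiquitin ligase gene Rchy1 (0.15 ± 0.05), lost the test without replicate 1 or 2 of p53 KO (adjusted p = 0.0590 and 0.0596) or replicate 3 of p53 Y217C (0.0747). Mdm4, the partner of Mdm2 in inhibiting p53, fell from 52.0, 51.6 and 53.7 CPM to 29.9, 32.1 and 36.3 CPM (-0.68 ± 0.09). Both genes that fell, Mdm4 and the ubiquitin ligase Cop1 (-0.41 ± 0.05), lie on chromosome 1. Cdkn2a, Atm, Atr and Ppm1d did not pass the test, with log2 fold changes between -0.04 and 0.08.

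Target genes of wild-type p53 moved in both directions. Of 16 targets of arrest and feedback, 9 rose and 3 fell, none by 2-fold, with a median log2 fold change of 0.19. Cdkn1a, which encodes the arrest protein p21, was at 16.4, 16.8 and 17.1 CPM in p53 KO and at 25.1, 23.9 and 24.1 CPM in p53 Y217C (0.54 ± 0.08, adjusted p = 2.47e-06). Gadd45a, a DNA damage response gene (0.85 ± 0.10), and Sesn1, a stress-induced inhibitor of mTORC1 (0.75 ± 0.09), rose further. Mdm2 was at 64.1, 64.8 and 60.7 CPM and at 61.5, 69.5 and 68.9 CPM and did not pass the test (0.08 ± 0.06, adjusted p = 0.303), although it did with limma, the tool the study names (0.11, adjusted p = 0.0320). Of 18 targets of death and metabolism, 6 rose and 5 fell. The death receptors Eda2r (1.36 ± 0.18) and Fas (1.27 ± 0.13) rose, and Perp, a membrane protein of p53-dependent apoptosis (-1.77 ± 0.13), and Pmaip1, which encodes NOXA (-1.05 ± 0.11), fell. Bax, the pore-forming effector, did not pass the test (-0.16 ± 0.07, adjusted p = 0.0625), and passed it with limma (-0.18, adjusted p = 0.00382), with only these 2 lines in the fit (-0.15, adjusted p = 0.0334) and without replicate 1 of p53 Y217C (-0.20, adjusted p = 0.0460). Of 14 targets of DNA repair and secretion, 6 rose and 5 fell, the former led by Tgfa, a ligand of the EGF receptor (1.61 ± 0.19), and Cd82, a tetraspanin (0.93 ± 0.10), and the latter by Igfbp3, which encodes an IGF-binding protein (-2.83 ± 0.30). Over the 3 lists, 3 genes rose and 4 fell by more than 2-fold.

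**Figure D4:**
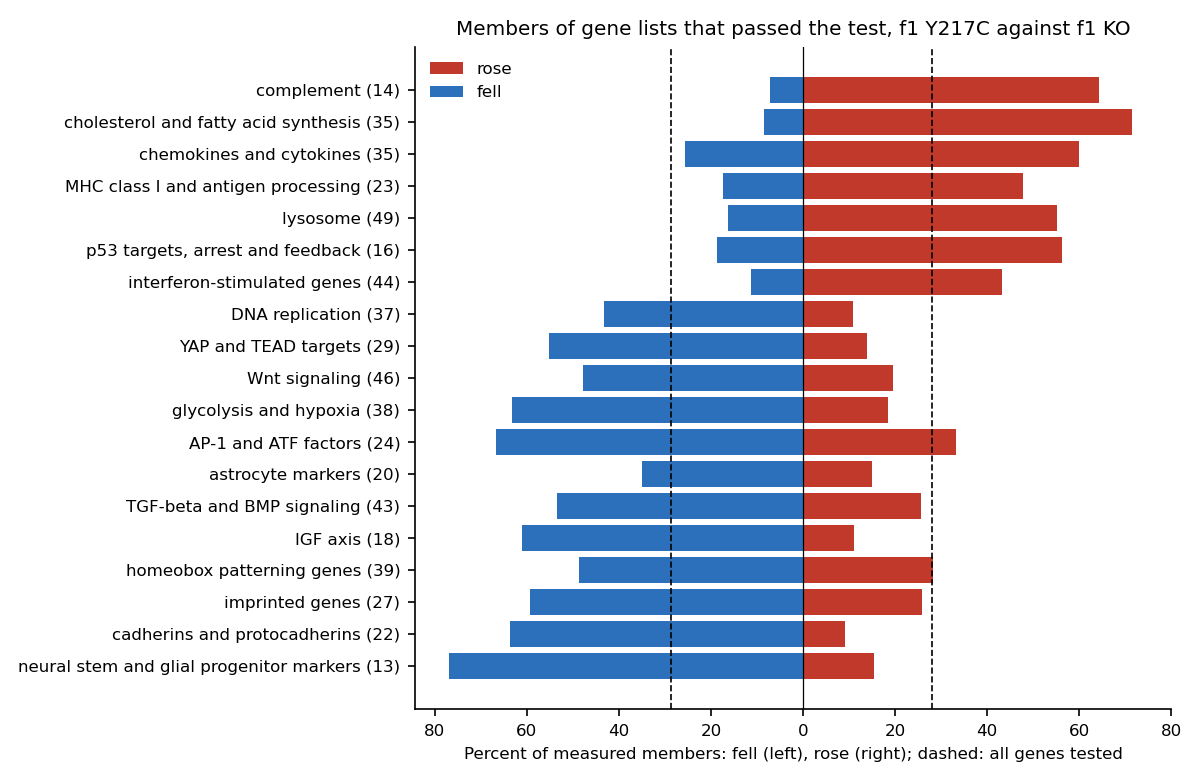
Percent of the measured members of 19 gene lists that rose (right, red) and fell (left, blue) in p53 Y217C against p53 KO, with the number of measured members in parentheses and dashed lines at the share of all genes tested, 28.0% higher and 28.7% lower. Lists are ordered by their median log2 fold change, with complement genes highest and neural stem and glial progenitor markers lowest.

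Imprinted genes, which are expressed from one parental copy, fell more often than they rose. Of 27 measured, 16 fell, 11 of them by more than 2-fold, and 7 rose, with a median log2 fold change of -0.53. Next to Grb10, Zdbf2 (-4.04 ± 0.21, on chromosome 1), a regulator of growth and feeding, and Nnat (-3.97 ± 0.12), which encodes neuronatin, fell furthest. H19, a growth-limiting noncoding RNA, fell from 460, 483 and 523 CPM to 74.5, 61.9 and 56.8 CPM (-2.92 ± 0.13, adjusted p = 9.20e-15). Peg3, a zinc finger gene, fell from 269, 262 and 258 CPM to 51.8, 55.2 and 58.0 CPM (-2.26 ± 0.11). Each library of p53 Y217C was below each of p53 KO for both. Kcnq1ot1 (-2.40 ± 0.33), the noncoding RNA that silences its cluster on the paternal copy, also fell. In the same cluster Cdkn1c, which encodes the cell-cycle inhibitor p57, rose from 87.2, 99.6 and 108 CPM to 260, 208 and 207 CPM (1.20 ± 0.12). The Dlk1-Dio3 cluster moved together, with falls of Dlk1 (-1.85), Rian (-1.38), Meg3 (-1.30) and Mirg (-1.07). Igf2, the neighbour of H19, was at 19.7, 19.2 and 19.5 CPM and at 19.2, 19.4 and 21.7 CPM and did not pass the test (0.05 ± 0.15, adjusted p = 0.813). Sgce (1.00 ± 0.06), Zrsr1 (1.21 ± 0.22) and Dcn (1.88 ± 0.19) were among the genes that rose.

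Genes of the insulin-like growth factor (IGF) axis fell as well. Of 18 members, 11 fell and 2 rose. Grb10 and H19 belong to this list and were also counted among the imprinted genes above. Igfbp2, a secreted protein that binds IGFs, fell from 237, 248 and 252 CPM to 16.6, 15.2 and 14.3 CPM (-4.00 ± 0.12, adjusted p = 9.51e-18), and Igfbp5, another, from 103, 126 and 122 CPM to 28.8, 29.8 and 31.2 CPM (-1.97 ± 0.09). The receptor Igf1r (-0.49 ± 0.07) and its adaptor Irs1 (-1.12 ± 0.11) fell, while Igfbp7, a binding protein of low affinity for IGFs, rose (1.05 ± 0.09). Igfbp2, Igfbp5 and Irs1 lie on chromosome 1, and without the chromosomal stretches named above 8 of 15 members fell and the median moved from -0.43 to -0.17.

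Genes of TGF-β and BMP signalling fell in 23 of 43 cases and rose in 11. The Id genes, which are induced by BMP signals and block differentiation factors, fell together. Id4 was at 10.9, 12.4 and 13.4 CPM in p53 KO and at 0.822, 1.14 and 1.24 CPM in p53 Y217C (-3.53 ± 0.12, adjusted p = 7.36e-17). Id2 (-2.30 ± 0.12), Id1 (-1.83 ± 0.12) and Id3 (-0.58 ± 0.08) followed. Among receptors and transducers, Acvrl1 (-1.97 ± 0.27) and Smad9 (-1.50 ± 0.11) fell. Ltbp2, a matrix protein related to those that hold latent TGF-β, rose from 36.4, 39.0 and 38.2 CPM to 128, 126 and 133 CPM (1.77 ± 0.07). Of 46 Wnt pathway genes, 22 fell, 13 of them by more than 2-fold, and 9 rose. The ligands Wnt2 (-3.18 ± 0.17) and Wnt5b (-2.39 ± 0.18), the secreted modulator Sfrp2 (-2.38 ± 0.20) and the receptor Fzd7 (-1.28 ± 0.05, on chromosome 1) fell, and the inhibitor Nkd1 (1.30 ± 0.20) rose. Outside the chromosomal stretches named above, 18 of 35 TGF-β and BMP genes fell and 10 rose. For the Wnt pathway, 17 of 39 fell there and 8 rose.

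Markers of neural stem and glial progenitor cells fell in 10 of 13 cases and rose in 2, with a median log2 fold change of -1.04. Sox2, a pluripotency and neural stem cell factor, was at 1.54, 1.59 and 1.63 CPM in p53 KO and had no count in p53 Y217C, at least 40.5-fold lower. Tnc, which encodes the matrix protein tenascin C, fell from 1530, 1573 and 1476 CPM to 580, 649 and 641 CPM (-1.29 ± 0.07), and Cd44, the hyaluronan receptor, from 822, 840 and 758 CPM to 323, 404 and 408 CPM (-1.09 ± 0.08). The groups were separate for each of these genes. Hes1, a Notch target (-1.04 ± 0.07), and Nes, which encodes nestin (-0.63 ± 0.10), also fell, whereas Ptprz1, a receptor phosphatase (0.58 ± 0.09), and Msi1, an RNA-binding protein (0.47 ± 0.14), rose. None of the 13 lies in the chromosomal stretches named above. Of 20 astrocyte markers, 7 fell and 3 rose. Slc1a3, the glutamate transporter GLAST, fell from 15.1, 20.2 and 20.9 CPM to 3.24, 3.10 and 3.07 CPM (-2.57 ± 0.12), and Clu, which encodes clusterin, rose from 4.87, 6.60 and 6.4 CPM to 21.3, 16.3 and 16.2 CPM (1.60 ± 0.16).

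Adhesion and patterning genes were also lower on balance. Of 22 cadherins and protocadherins, 14 fell, 7 by more than 2-fold, and 2 rose. Cdh5, the endothelial cadherin (-2.90 ± 0.33), and Cdh18 (-2.07 ± 0.16) fell, and Cdh2, N-cadherin, fell from 579, 564 and 541 CPM to 360, 437 and 442 CPM (-0.44 ± 0.07). The 2 that rose were Cdh3, P-cadherin, from 19, 18.3 and 20.5 CPM to 82.3, 81.0 and 82.7 CPM (2.09 ± 0.09, adjusted p = 9.73e-15), and Cdh11 (0.78 ± 0.08). Both lie on chromosome 8 beyond 100 Mb, and away from the named stretches 11 of 15 members fell and 0 rose, at an adjusted p of 0.05 in edgeR. Of 39 homeobox genes, 19 fell and 11 rose. Lhx9, on chromosome 1, fell from 28.7, 27.9 and 28.5 CPM to 0.810, 0.953 and 1.15 CPM (-4.88 ± 0.18). Without the stretches, 12 of 32 homeobox genes fell and 11 rose. Of 29 genes of the Hippo effectors YAP and TEAD and their targets, 16 fell and 4 rose, and Nuak2, Ajuba and Ptpn14 fell furthest, at -1.44, -1.18 and -1.01. These 3 genes lie in the named stretches and were the only members that fell by more than 2-fold. Outside the named stretches, 11 of 24 YAP and TEAD genes fell and 4 rose. Of 24 AP-1 and ATF factors, all 24 passed the test, with 16 lower and 8 higher, and 11 of 18 outside the stretches were lower and 7 higher. Among the 24, Maf (1.58 ± 0.09) and Egr1, an immediate early gene (1.22 ± 0.08), rose and Egr3 (-1.36 ± 0.12) fell. Maf lies on chromosome 8 beyond 100 Mb and Egr3 on chromosome 14, within the named stretches.

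Genes of cholesterol and fatty acid synthesis rose. Of 35 members, 25 rose and 3 fell, 5 and 1 of them by more than 2-fold, with a median log2 fold change of 0.55. Mvd, which makes isopentenyl diphosphate, was at 25.8, 24.2 and 24.9 CPM in p53 KO and at 101, 81.5 and 84.7 CPM in p53 Y217C (1.83 ± 0.09, adjusted p = 2.38e-14), and lies on chromosome 8 beyond 100 Mb. Acss2, an acetyl-CoA synthetase, rose from 4.23, 3.61 and 4.38 CPM to 17.3, 12.9 and 12.1 CPM (1.79 ± 0.12). Both genes were higher in every library of p53 Y217C. The enzymes of the later and earlier steps rose less, namely Tm7sf2 (1.26), Nsdhl (1.25), Fdps (1.00), Idi1 (0.99), Hmgcs1 (0.98) and Sqle (0.52). The transcription factor genes Srebf2 and Srebf1 and the fatty acid enzymes Fasn and Scd1 did not pass the test, with log2 fold changes from -0.01 to 0.03 and adjusted p-values from 0.750 to 0.949. Of those that fell, Insig2, a retention protein for SREBP (-0.55 ± 0.08), and Hsd17b7 (-0.34 ± 0.07) lie on chromosome 1. Outside the named stretches 23 of 31 members rose and 1 fell.

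Lysosomal genes rose more often than they fell. Of 49, 27 rose and 8 fell, with a median of 0.25, and away from the chromosomal stretches 26 of 45 rose and 5 fell. Ctsh, a cathepsin, rose from 11.2, 12.6 and 11.4 CPM to 34.9, 32.5 and 33.4 CPM (1.52 ± 0.08). Ctsd, the main aspartic protease of lysosomes (0.55 ± 0.09), and Tfeb, the transcription factor of lysosome biogenesis (0.30 ± 0.08), rose. Ctsc fell from 4.07, 3.65 and 4.27 CPM to 0.564, 0.191 and 0.443 CPM (-3.32 ± 0.19), and Ctsk, a collagen-degrading cathepsin, fell by 2.20 on the log2 scale. The promoters of the members were searched for the letters TCACGTGA, the palindromic site that TFEB binds, from 250 bases before to 50 bases after the start of each gene in RefSeq (GRCm38.p6). They were found in 5 of 38 members with a promoter sequence (13.2%) and in 304 of 27025 genes (1.12%). Windows of 30 bases around 3 of them are shown because these genes differ in their change, with the match in capitals. Ctsd and Cln3 (0.66 ± 0.11) rose, and Mcoln1, a lysosomal calcium channel, did not pass the test (0.03 ± 0.06, adjusted p = 0.669).

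Ctsd (minus strand, chr7:142387908-142387937): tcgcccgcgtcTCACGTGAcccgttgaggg

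Cln3 (minus strand, chr7:126583340-126583369): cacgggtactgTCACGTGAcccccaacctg

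Mcoln1 (plus strand, chr8:3500462-3500491): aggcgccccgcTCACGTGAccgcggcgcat

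The other members with these letters were Ctsa, which rose (0.26 ± 0.07), and Gla, which did not pass the test (0.15 ± 0.08, adjusted p = 0.138). The sterol element TCACNCCAC, searched on both strands in the same way, was found in 1 of 24 members of the cholesterol list with a promoter sequence (4.17%) and in 388 of 27025 genes (1.44%). That member was Hmgcs1, whose window is shown as the only match in the list.

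Hmgcs1 (plus strand, chr13:119690204-119690233): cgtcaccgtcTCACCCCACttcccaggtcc

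Genes of glycolysis and hypoxia fell in 24 of 38 cases and rose in 7, with a median of -0.31. Ldha, which converts pyruvate to lactate, fell from 899, 921 and 873 CPM to 403, 467 and 448 CPM (-1.03 ± 0.08, adjusted p = 2.02e-10), and Slc16a3, the exporter of lactate, from 123, 124 and 120 CPM to 48.9, 54.6 and 52.7 CPM (-1.23 ± 0.09). Neither gene's libraries overlapped. Egln3, an oxygen sensor that is itself induced by hypoxia, fell from 36.3, 36.2 and 37.4 CPM to 12.4, 14.9 and 13.3 CPM (-1.44 ± 0.09). Hexokinase 2 (Hk2, -0.85 ± 0.10), Eno1 (-0.69 ± 0.08), Pgk1 (-0.52 ± 0.07), Vegfa (-0.56 ± 0.05) and the glucose transporter Slc2a1 (-0.34 ± 0.07) fell as well, and Eno2, the neuronal enolase, rose (0.87 ± 0.12). Of these members, 36 lie away from the chromosomal stretches, of which 23 fell and 6 rose.

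Complement and chemokine genes rose more often than they fell. Of 14 complement genes measured, 9 rose, 6 by more than 2-fold, and 1 fell, with a median of 0.85. C1s1, a protease of the C1 complex, was at 3.04, 3.05 and 3.5 CPM in p53 KO and at 17.1, 9.26 and 10.6 CPM in p53 Y217C (1.95 ± 0.23), C1ra, its partner, at 7.28, 7.53 and 7.96 CPM and 31.8, 23.7 and 22.9 CPM (1.78 ± 0.18), and C3, the central component, at 0.285, 0.346 and 0.473 CPM and 1.47, 0.877 and 1.23 CPM (1.69 ± 0.28). C4b (1.38 ± 0.26) rose too. Replicate 1 of p53 Y217C was the highest of its line for each of these 4 genes, and the groups did not overlap. The gene that fell was Cd55, a surface inhibitor of complement on chromosome 1, at 2.26, 2.98 and 2.49 CPM and at 0, 0.0508 and 0 CPM.

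Of 35 chemokines and cytokines measured, 21 rose, 13 by more than 2-fold, and 9 fell. Cxcl3, a neutrophil attractant, rose from 0.0393, 0.0769 and 0.135 CPM to 5.62, 4.12 and 4.49 CPM (5.79 ± 0.44, adjusted p = 9.94e-10). Il33, an alarmin, rose from 0.452, 0.461 and 0.715 CPM to 3.49, 3.35 and 2.5 CPM (2.51 ± 0.24). The monocyte attractants Ccl7 (1.94 ± 0.10) and Ccl2 (1.06 ± 0.12) rose, Ccl2 from 7.36, 7.42 and 7.97 CPM to 18.7, 15.0 and 13.7 CPM. Cxcl14, Ackr3, a scavenging chemokine receptor (-3.30 ± 0.09), and Il1rl1, the receptor of IL-33 (-1.98 ± 0.07), fell, and Ackr3 and Il1rl1 lie on chromosome 1. Among 44 interferon-stimulated genes, 19 rose and 5 fell. Without replicate 1 of p53 Y217C 12 rose (27.3%), when 3603 of all 14427 genes rose. Isg20, an exonuclease, rose from 6.37, 6.57 and 6.92 CPM to 24.1, 19.9 and 21 CPM (1.71 ± 0.11), and Xaf1 from 13.6, 15.3 and 16.0 CPM to 40.1, 30.8 and 34.7 CPM (1.24 ± 0.15), while Ifitm1 fell from 15.5, 19.6 and 21.1 CPM to 0.634, 0.559 and 0.443 CPM. Of 23 genes of MHC class I and antigen processing, 11 rose and 4 fell. B2m, the light chain (0.51 ± 0.08), H2-K1, a heavy chain (0.73 ± 0.11), and Psmb8, an immunoproteasome subunit (0.72 ± 0.21), rose, Tap1 did not pass the test (0.22 ± 0.16, adjusted p = 0.261), and Cd1d1, which presents lipids, fell (-1.85 ± 0.18). Other immune lists went both ways. Of 32 reactive astrocyte genes, 16 rose and 13 fell, and of 23 genes of antiviral and cytosolic DNA sensing, 6 rose and 6 fell.

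No measured gene of the DNA replication and mitosis lists changed by 2-fold. Of 37 DNA replication genes, 16 fell and 4 rose, with a median of -0.08, and 9 fell without replicate 1 of p53 Y217C (24.3%, beside 25.7% of all genes). The helicase subunits Mcm6 (-0.61 ± 0.06) and Mcm3 (-0.58 ± 0.09) fell and lie on chromosome 1. Gins3 (-0.77 ± 0.10) and Orc6 (-0.74 ± 0.07) fell and lie on chromosome 8 between 80 and 100 Mb, and Gins2 (0.84 ± 0.08) rose and lies beyond 100 Mb. Without the named stretches 11 of 30 fell and 2 rose. Of 32 genes of mitosis, 9 rose and 4 fell. Mki67, the proliferation marker, was at 465, 440 and 415 CPM in p53 KO and at 375, 493 and 500 CPM in p53 Y217C, with overlapping libraries and no difference past the test (0.05 ± 0.14, adjusted p = 0.774), and Top2a (-0.11 ± 0.08, adjusted p = 0.266) did not pass either. Of 24 G1 regulators and members of the RB axis, 4 rose and 5 fell. The 4 that rose encode inhibitors of cyclin-dependent kinases, namely Cdkn1c (1.20 ± 0.12), Cdkn2b (0.70 ± 0.08), Cdkn1b (0.64 ± 0.09) and Cdkn2c (0.56 ± 0.06). Mycn, a MYC family factor, fell furthest (-1.95 ± 0.20).

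Finally, the effect of p53 Y217C was set beside its effect in the m1 culture, made in the same way from male pups and compared there with its own KO line. Of the 8183 genes called in f1, 6297 (77.0%) were also called in m1, which is 61.9% of the 10176 genes called there (70.5% of all genes tested), and 4531 of them (72.0%) had the same sign. The difference between the effects passed the test at 7913 genes (54.8%). The m1 R172H line was also compared, chosen because earlier results of these data had it nearest in overall expression. Its likeness is therefore no independent result. For p53 R172H in m1, which called 5872 genes (40.7%), 3990 genes were shared, 48.8% of the f1 and 68.0% of the m1 calls, with the same sign at 3275 (82.1%). There the difference of effects passed the test at 5249 genes (36.4%). Across genes, which are not independent replicates and share the fit, Pearson's r of the f1 Y217C effect was 0.15 with that of m1 Y217C and 0.40 with that of m1 R172H, and Spearman's rho was 0.30 and 0.40.

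Many genes named above moved the other way in m1. Id4 rose there from a mean of 2.54 to 53.2 CPM (log2 fold change 4.39) and Slc1a3 from 12.2 to 106 CPM (3.11), and each differed from its f1 effect past the test. Cxcl14 rose from 6.15 to 226 CPM (5.19), and Igfbp3 rose from 24.8 to 447 CPM (4.17) in m1 and fell from 1.68 to 0.224 CPM (-2.83) in f1. In the opposite sense, Cdh3 fell from 8.71 to 0.434 CPM in m1 (-4.33), Cdkn1c from 64.2 to 5.83 CPM (-3.46) and Tbx18, a T-box factor of pericytes and mesenchyme, from 72.0 to 16.2 CPM (-2.15), while Tbx18 rose from 52.5 to 113 CPM (1.10) in f1. By list, the median log2 fold changes in f1 and m1 were -0.37 and 1.67 for astrocyte markers, 0.42 and -1.14 for chemokines and cytokines, 0.17 and -0.46 for interferon-stimulated genes, and 0.31 and -0.37 for MHC class I and antigen processing. Imprinted genes fell on balance in both, with medians of -0.53 and -1.53, glycolysis and hypoxia genes at -0.31 and -0.44, and the median of lysosomal genes was above 0 in both, at 0.25 and 0.85. Grb10 fell from 543 to 25.3 CPM in m1 (-4.42). The cultures differ in sex, in the pups pooled and in their lines, and these cannot be told apart.

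**Figure D5:**
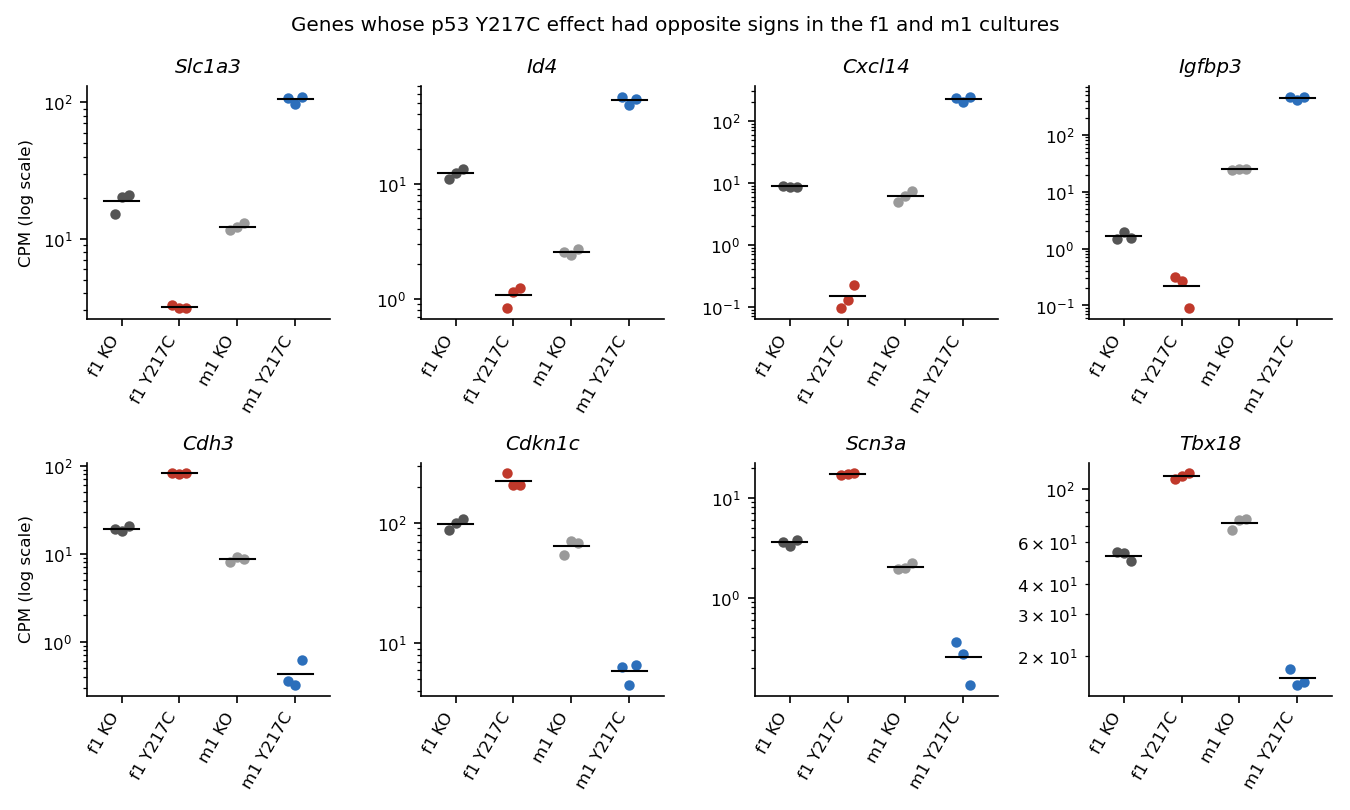
Levels in CPM (log scale) of 8 genes, chosen after their values were seen, in the KO and p53 Y217C lines of the f1 and m1 cultures, each dot a library and each bar the mean of 3. Slc1a3, Id4, Cxcl14 and Igfbp3 were lower in p53 Y217C in f1 and higher in m1, and Cdh3, Cdkn1c, Scn3a and Tbx18 the reverse, for example Cdh3 at 82.0 against 19.2 CPM in f1 and 0.434 against 8.71 CPM in m1.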

How the data were processed

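RNA-seq counts of 6 libraries, 3 of f1 p53 Y217C and 3 of f1 p53 KO, were compared within a fit of all 24 libraries. Per the labels and the study's methods, poly(A) RNA was sequenced and the authors mapped the reads with STAR 2.5.1a to the Ensembl release 76 assembly and used featureCounts for gene counts, from which reads with more than 1 placement or gene were left out. The deposited values are raw counts of 14427 genes, already filtered for low expression. The strand of counting is not given in the sources used here, so overlapping and antisense genes cannot be told apart. Symbols and positions came from GENCODE M21 (GRCm38), which named 14350 identifiers.

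A filter of 1 CPM in 2 or more libraries removed 0 genes. After TMM scaling across the series, edgeR 4.0.16 (R 4.3.3) fitted a quasi-likelihood model with a mean per line, with Benjamini-Hochberg adjustment and a threshold of 0.05. The test was limma's in the study and is an alternative here (limma 3.58.1), as is DESeq2 1.42.0. The script was checked on simulated data. CPM are counts per 1000000 after TMM, and 3 counts per library were taken as the floor. The floor covers counting error only.

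Named genes, of at least 5 CPM in the higher line, were the 12 largest rises and falls in log2 fold change and the 6 in CPM, the 3 largest changes of at least 1 CPM in each of 43 lists, and the 5 largest differences of effects from m1 in each direction. The comparison, its members and the lists were chosen with earlier results of these data known. Some genes that these rules or lists take in are not reported here. Regions were compared with log2(CPM + 0.5).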

Additional observations from a re-analysis of the deposited data

Results flagged for a closer look

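The effect of p53 Y217C over KO differed between the f1 and m1 cultures at 7913 genes by the test of the difference itself in edgeR. The differences given here are f1 effect minus m1 effect on the log2 scale, for the 5 largest in each direction among genes of at least 5 CPM in one of the 4 lines.

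The f1 effect was the more positive for Slco4a1, an organic anion transporter, with a difference of 7.96, since its mean was 0.941 CPM in f1 KO, 1.76 CPM in f1 p53 Y217C, 8.22 CPM in m1 KO and 0.0601 CPM in m1 p53 Y217C. The difference was 6.42 for Cdh3 (P-cadherin), 5.36 for Eda (the ligand ectodysplasin, 2.90 to 7.67 CPM in f1 and 2.83 to 0.180 CPM in m1), 5.25 for Scn3a (a sodium channel, 3.57 to 17.2 CPM and 2.04 to 0.256 CPM) and 5.23 for Onecut2, which was below 1 CPM in both m1 lines.

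It was the more negative for Sox2, with a difference of -13.10. Sox2 averaged 1.59 CPM in f1 KO with no count in f1 p53 Y217C, and rose from 24.5 to 193 CPM in m1. The differences were -12.55 for Nlrp2 (a NOD-like receptor), -11.54 for Tmem200c (a transmembrane protein), -11.40 for Tnn (tenascin N) and -11.11 for Cxcl14. Nlrp2 and Tmem200c rose to means of 11.7 and 31.9 CPM in m1 p53 Y217C. In f1 they averaged 0.0484 and 0.0282 CPM in KO and 0.00392 and 0 CPM in p53 Y217C, with fitted log2 fold changes of -3.04 and -4.38 that add to the difference, and its size depends on the prior count of the fit, as does that of Sox2 and Tnn. The f1 fall of Tmem200c did not pass the test without replicate 1 of f1 KO (adjusted p = 0.140), without replicate 1 (0.0607) or replicate 2 (0.0551) of f1 p53 Y217C, or with limma (0.0533).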

How the results depend on the processing

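Leaving out each library in turn gave 7306 to 7686 genes that differed, 3602 to 3769 higher, 3703 to 3917 lower and 1250 to 1382 past 2-fold. The difference from m1 Y217C covered 7417 to 7858 genes and that from m1 R172H 4636 to 5061. Members that rose numbered 24 to 25 for cholesterol synthesis, 25 to 30 for lysosome, 8 to 9 for complement, 19 to 20 for chemokines, 12 to 19 for interferon-stimulated genes, 9 to 11 for MHC class I and 7 to 8 for p53 arrest targets. Members that fell numbered 22 to 24 for glycolysis and hypoxia, 15 to 16 for imprinted genes, YAP targets and AP-1 factors, 10 to 11 for the IGF axis, 23 to 24 for TGF-β and BMP, 19 to 22 for Wnt, 9 to 10 for progenitor markers, 6 to 8 for astrocyte markers, 13 to 15 for cadherins, 17 to 20 for homeobox genes and 9 to 16 for DNA replication. The log2 fold change of Trp53 was 6.21 to 6.29, and the medians were -0.51 to -0.50 on chromosome 1 and -0.48 to -0.46 on chromosome 14.

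With genes above 10 CPM in at least 3 libraries only, 621 genes passed 2-fold against 1330, and 13 chemokines rose against 21, since fewer genes were tested. With library totals in place of TMM, the median of all genes moved by 0.08 and those of chromosomes 1 and 14 were -0.42 and -0.39. Without the chromosomal stretches named in the report, a choice added after the data were seen, 12 homeobox genes fell against 19.

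The sign turned only for genes that did not pass the test in either setting. With limma this held for Cdkn2a (-0.0075), Fasn (0.0034), Scd1 (-0.0031) and Srebf2 (-0.012), with library totals for Fasn (0.071) and Ppm1d (0.038), and with the 10 CPM filter for Fasn (0.015). With 1 library left out it held for Cdkn2a (-0.040 to 0.13), Csf1r (-0.46 to 0.059), Fasn (-0.034 to 0.018), Igf2 (-0.013 to 0.077), Mki67 (-0.020 to 0.17), Ppm1d (-0.10 to 0.011), Scd1 (-0.014 to 0.029) and Srebf2 (-0.018 to 0.027), and Aqp4 ranged from 0 to 3.41. Bax passed with limma and with the compared lines only, Mdm2 with limma and with library totals, Gla with library totals (0.22, adjusted p = 0.0281) and Gfap with limma (-2.37, adjusted p = 0.0177).

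Replicate numbers are shared by the labels, but same-numbered libraries did not deviate together, with correlations of their deviations of -0.111, 0.0474 and -0.172, and 1 of 3 p53 Y217C libraries was closest to its own number. With the replicate block, 8035 genes differed, 3960 higher and 4075 lower, 1328 past 2-fold, 7794 in the difference from m1 Y217C and 5074 in that from m1 R172H, with Trp53 at 6.24 and medians of -0.50 and -0.47 on chromosomes 1 and 14.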
